A study of Rattus norvegicus with 9 samples.

Results

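The 5 genes Akr1c3, Vsir, Lrrc32, Svop and Nphs1 were singled out for how they leaned with lithium in RN46A cells, a rat raphe line with serotonergic features. They were taken by name from the 137 genes that the authors' deposited lithium table lists, out of 32662 genes counted. Of these 137 genes, 44 were listed as higher and 93 as lower with lithium. The genes were chosen by their deposited lithium fold changes and p-values, in which Vsir, Akr1c3, Lrrc32, Svop and Nphs1 held ranks 1, 2, 7, 8 and 20 by p-value and ranks 19, 1, 2, 3 and 6 by size of the log2 change. No gene in that table passed correction: the authors' deposited adjusted p was 0.9999 for every line. The lithium differences below are therefore a description of the libraries that chose the genes, with no test.

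The products of these genes act at different cell surfaces and compartments. Akr1c3 encodes an aldo-keto reductase of steroid and prostaglandin metabolism; RefSeq lists the rat gene also as Akr1c18, the name of the enzyme that inactivates progesterone in the rodent ovary. Vsir encodes VISTA, an inhibitory immune checkpoint of the B7 family that is best known from myeloid and T cells. Lrrc32 encodes GARP, a membrane protein that holds latent TGF-beta on regulatory T cells and platelets so that integrins can release it. Svop encodes a synaptic vesicle membrane protein related to the SV2 transporter-like proteins, and Nphs1 encodes nephrin, the adhesion molecule of the kidney's slit diaphragm. Lithium, a mood stabiliser, acts on inositol monophosphatase and on glycogen synthase kinase 3, while valproate, an antiepileptic also used as a mood stabiliser, inhibits histone deacetylases.

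RN46A cells grew at 33 °C in 5% serum and were differentiated for 72 h at 39 °C in 1% serum. Drug exposure lasted 72 h, at 0.5 mM for lithium and 0.5 mM for sodium valproate (VPA); controls had neither drug, and each group had 3 libraries of polyadenylated RNA. The labels give 1 cell line for all groups, with no genotype, and are silent on whether replicate libraries trace to different cultures. Every p-value here therefore reflects the spread of these libraries alone, and that spread may be technical. Library totals ran from 9580591 to 13030300 counts, and levels are given as CPM, counts relative to library size, on sizes scaled by the trimmed mean of M-values (TMM). One count was worth 0.077 to 0.109 CPM. Of 20 serotonergic markers, 3 had a name in the deposited tables (Maob, Htr5b and Slc29a4), and their summed level was 5.1 to 8.8 CPM in control, 5.43 to 5.88 CPM with lithium and 17.9 to 20.5 CPM with VPA. The defining markers Tph2 and Slc6a4 carried no name and were not analysed here.

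Akr1c3 (ENSRNOG00000017531) stood at 6.35, 4.99 and 4.71 CPM in control libraries 1, 2 and 3, at 2.76, 0.877 and 1.31 CPM in the lithium libraries, and at 1.33, 1.07 and 0.884 CPM in the VPA libraries. All 6 drug-treated libraries lay below the lowest control. The group means were 5.35 ± 0.877 CPM in control, 1.65 ± 0.985 CPM with lithium and 1.09 ± 0.222 CPM with VPA (SD, n = 3). The fitted log2 difference for lithium was -1.70 ± 0.38 (SE), a level 3.24-fold lower. The lithium libraries varied more than counting alone gives, with a coefficient of variation of 59.7% against 22.5% from counting at a mean of 19.7 reads. Akr1c3 was the gene with the largest log2 change in the authors' deposited lithium table. In the authors' deposited Cufflinks table it lies on chromosome 17 from 69761117 to 69778021, in a build not given in the sources used here. Akr1c3 is 1 of 9 Akr1c genes on chromosome 17 in the RefSeq gene table (assembly GRCr8), and related copies can share reads. How alike these copies are and how many reads they share was not tested, so its level is uncertain. The neighbouring copy Akr1c19 stood at 11.9, 13.7 and 6.49 CPM in control, 8.96, 7.28 and 4.01 CPM with lithium, and 3.43, 5.89 and 1.69 CPM with VPA. The lithium and control ranges of Akr1c19 overlapped.

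Vsir (ENSRNOG00000000569) was the most abundant of the 5, at 39.4, 31.4 and 36.0 CPM in control, 24.2, 21.3 and 20.1 CPM with lithium, and 18.8, 25.8 and 18.9 CPM with VPA. Both drug groups lay below every control library and overlapped each other. Means were 35.6 ± 4.02 CPM in control, 21.9 ± 2.11 CPM with lithium and 21.2 ± 4.03 CPM with VPA (SD, n = 3). The log2 difference for lithium was -0.70 ± 0.19 (SE), the smallest of the 5 in size, on the largest number of reads (243 to 281 per lithium library). The whole of Vsir, 25.7 kb in the RefSeq gene table, lies within Cdh23, a cadherin gene of 383 kb on the opposite strand. The libraries were unstranded, so a read in exons of both genes could not be assigned by strand. Only whole gene spans were compared, and how far the exons overlap was not tested. In the authors' deposited Cufflinks table the locus named Vsir runs on chromosome 20 from 29857636 to 29990111, which is 132476 bases and longer than the RefSeq gene.

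Lrrc32 (ENSRNOG00000015310) stood at 2.99, 2.5 and 2.31 CPM in control, at 1.38, 0.789 and 1.0 CPM with lithium, and at 2.81, 1.5 and 1.85 CPM with VPA. The lithium libraries lay below all others, while VPA and control overlapped. The lithium mean of 1.06 ± 0.298 CPM compared with 2.6 ± 0.353 CPM in control and 2.05 ± 0.678 CPM with VPA (SD, n = 3), and the log2 difference for lithium was -1.29 ± 0.35 (SE). Each lithium library held only 9 to 16 reads of Lrrc32. The lithium coefficient of variation of 28.2% was close to the 28.1% that counting alone gives at these depths.

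Svop (ENSRNOG00000000693) stood at 1.45, 0.868 and 1.16 CPM in control, at 2.67, 3.42 and 2.62 CPM with lithium, and at 3.67, 3.21 and 2.57 CPM with VPA. All 6 drug-treated libraries lay above the highest control, and lithium and VPA overlapped. Means were 1.16 ± 0.292 CPM in control, 2.9 ± 0.449 CPM with lithium and 3.15 ± 0.551 CPM with VPA (SD, n = 3). The log2 difference for lithium was 1.31 ± 0.32 (SE), a level 2.47-fold higher. The RefSeq gene table places 24.3 kb of the 59.6 kb Svop gene over Usp30, the gene of a mitochondrial deubiquitinase on the opposite strand. How far the exons of these genes overlap was not tested either, so the share of ambiguous reads is unknown.

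Nphs1 (ENSRNOG00000020873) was the least abundant, at 0.544, 0.651 and 0.533 CPM in control, 1.12, 2.11 and 1.54 CPM with lithium, and 0.468, 0.857 and 0.803 CPM with VPA. The lithium libraries lay above all others, and VPA and control overlapped. The lithium mean was 1.59 ± 0.494 CPM against 0.576 ± 0.0652 CPM in control and 0.709 ± 0.211 CPM with VPA (SD, n = 3), and the log2 difference for lithium was 1.45 ± 0.41 (SE). Each control library held exactly 6 reads of Nphs1. Their coefficient of variation of 11.3% was below the 40.8% that counting alone gives at 6 reads, so the control spread understates the error. Nphs1 had enough counts for the fit only through the lithium libraries, where it was high, and it was not tested when VPA and control were fitted alone.

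**Figure D1:**
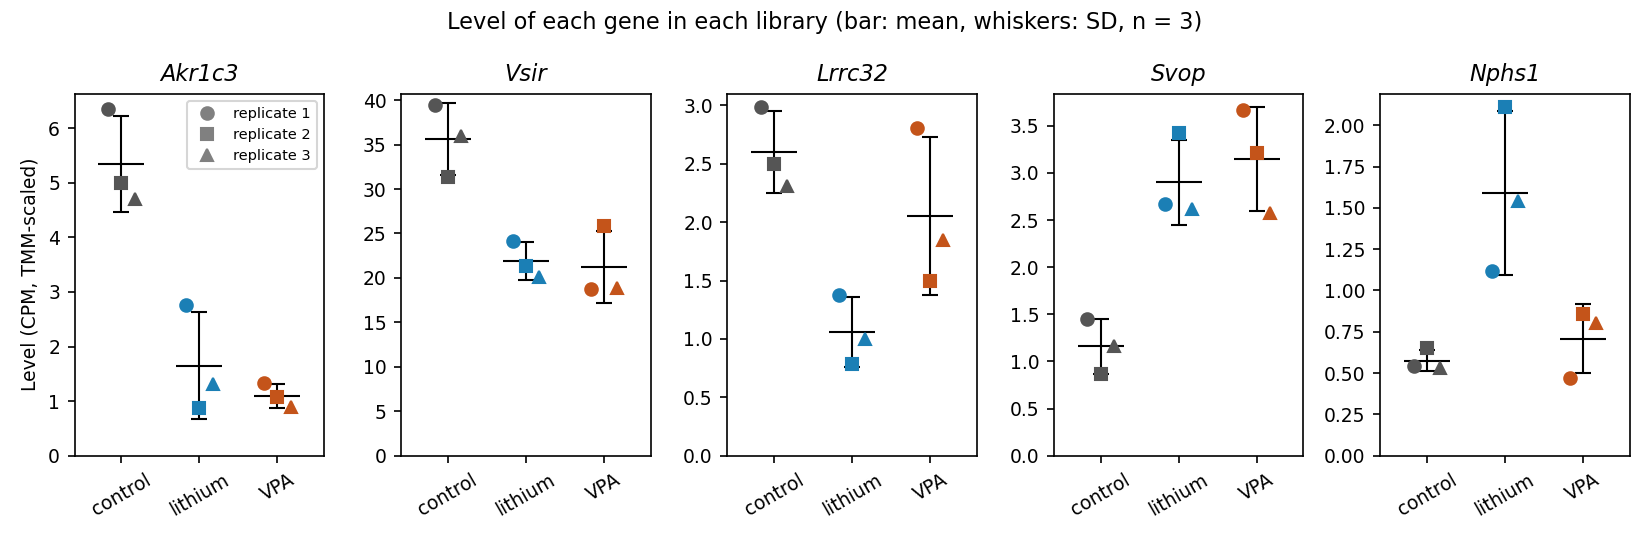
Level of each of the 5 genes (CPM on TMM-scaled library sizes, linear axes from 0) in the control, lithium and VPA libraries; symbols mark replicates 1, 2 and 3, the horizontal bar is the mean and the whiskers are the SD (n = 3). Akr1c3 and Vsir are lower and Svop is higher in all 6 drug-treated libraries than in any control, while Lrrc32 and Nphs1 stand apart only in the lithium libraries.

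The lithium and control ranges did not overlap for any of the 5 genes, 3 lower and 2 higher, which is no finding, since the same contrast chose the genes. Across all 12719 genes tested, the groups did not overlap for 3.28% (1.71% higher, 1.57% lower). Differences of 2-fold or more were seen for 4 of the 5, Vsir being the exception. Over all genes tested, the log2 difference for lithium had a median of 0 and ran from -0.35 to 0.32 between the 5th and 95th percentiles. The quasi-likelihood test of edgeR, adjusted by Benjamini-Hochberg, called 0 genes (0%) for lithium, and 116 genes (0.912%) had an unadjusted p under 0.05. DESeq2 also called 0.

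Other genes lay close to the 5 by deposited p-value. Directly after Vsir and Akr1c3, with p-values of 8.83e-05 and 0.000183 in the authors' deposited DESeq2 table, came AABR07028488.1, which has only a clone name, and Oasl, an interferon-induced antiviral gene (0.00038 and 0.000439). Before Lrrc32 and Svop (0.00113 and 0.00114) the authors' deposited table had Pln, the phospholamban gene, and Penk, the proenkephalin gene (0.00102 and 0.00108), and after them Serpinf1 and Rgs17 (0.00167 and 0.00195). Around Nphs1 (0.00608) it had Lox and Rgs2 before (0.00506 and 0.00555) and Anxa8 and Syndig1 after (0.00649 and 0.00706). The 5 genes are thus not the only ones at these p-values.

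The VPA libraries took no part in choosing the genes, but the control libraries did, so the comparison of VPA with control is not independent of the choice. Among the 12719 genes tested, 8.7% were called for VPA against control in edgeR's quasi-likelihood test (5.71% higher, 2.99% lower). With the replicate number as a block, which pairs VPA and control libraries, the number of calls went from 1106 to 1741. Among the 5 genes there were 2 falls and 1 rise with VPA, and the other two were not called. The VPA and control ranges did not overlap for these 3, as was so for 25.5% of all genes tested (14.1% higher, 11.4% lower).

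Akr1c3 fell with VPA by 2.28 ± 0.40 (SE) on the log2 scale, a level 4.85-fold lower, with an adjusted p of 0.00533 (edgeR). Its lithium difference was -1.70. The authors' deposited tables give Akr1c3 with VPA at -1.7 in DESeq2 (adjusted p = 5e-06), at 0.877 FPKM against 4.26 FPKM in control in Cufflinks, and, for its 1 listed transcript, at an effect of -1.57 ± 0.32 on the natural log scale in sleuth. Vsir fell by 0.75 ± 0.19 (adjusted p = 0.0287, edgeR), beside -0.70 with lithium. The authors' deposited Cufflinks table gives Vsir at 9.41 FPKM with VPA and 16.8 FPKM in control (q = 0.0198, Cufflinks). Per length Vsir was thus the higher of these 2 genes in control. The authors' deposited values for Vsir were -0.7 in DESeq2 (adjusted p = 0.017) and -0.53 ± 0.16 in sleuth (natural log scale, q = 0.019). DESeq2 on the count table also called Vsir (adjusted p = 0.00463). In edgeR, leaving out VPA 1 or VPA 3 took the Vsir call away (adjusted p = 0.121 and 0.0949). So did leaving out control 1 (0.0925) or control 3 (0.0583), and fitting VPA and control alone without pairs (0.057). With same-numbered libraries as pairs, VPA and control alone kept the call (-0.77, adjusted p = 0.0163, edgeR).

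Svop rose with VPA by 1.42 ± 0.32 (adjusted p = 0.0169, edgeR), beside 1.31 with lithium. The authors' deposited DESeq2 table gives Svop at 1.0 with an adjusted p of 0.039. The Svop call was lost without VPA 1 or control 2 (adjusted p = 0.0739 and 0.0586, edgeR). Lrrc32 had a log2 difference of -0.33 ± 0.33 with VPA, beside -1.29 with lithium, and did not pass (adjusted p = 0.631, edgeR). Nphs1 had one of 0.28 ± 0.45 with VPA, beside 1.45 with lithium. For Nphs1 this is a description and no test, since it was kept for the fit only through its lithium libraries. All comparisons with control share the same 3 control libraries.

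Comparing the drugs directly, 7.93% of genes tested were called for VPA against lithium in edgeR (5.61% higher, 2.32% lower) and 0 of the 5 were; an unadjusted p under 0.05 was seen for 2 of the 5 and for 21.5% of all genes tested, and DESeq2 called 0 of the 5 as well. For Lrrc32 and Nphs1 the lithium and VPA ranges did not overlap, as was so for 29.2% of all genes tested. The difference of VPA from lithium was 0.96 ± 0.36 (SE) for Lrrc32 and -1.17 ± 0.39 for Nphs1 on the log2 scale. Both are a description and no test, since the lithium values that chose these genes enter them and Nphs1 was kept for the fit only through its lithium libraries. For Akr1c3, Vsir and Svop the differences were -0.58 (95% interval -1.51 to 0.35), -0.05 (-0.46 to 0.36) and 0.12 (-0.51 to 0.74). The lithium values that chose these genes enter here too, so the differences are a description and the intervals need not hold their 95% coverage. These intervals do not show that the drugs act alike: for Akr1c3 they leave room for a level with VPA more than 2-fold below that with lithium.

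**Figure D2:**
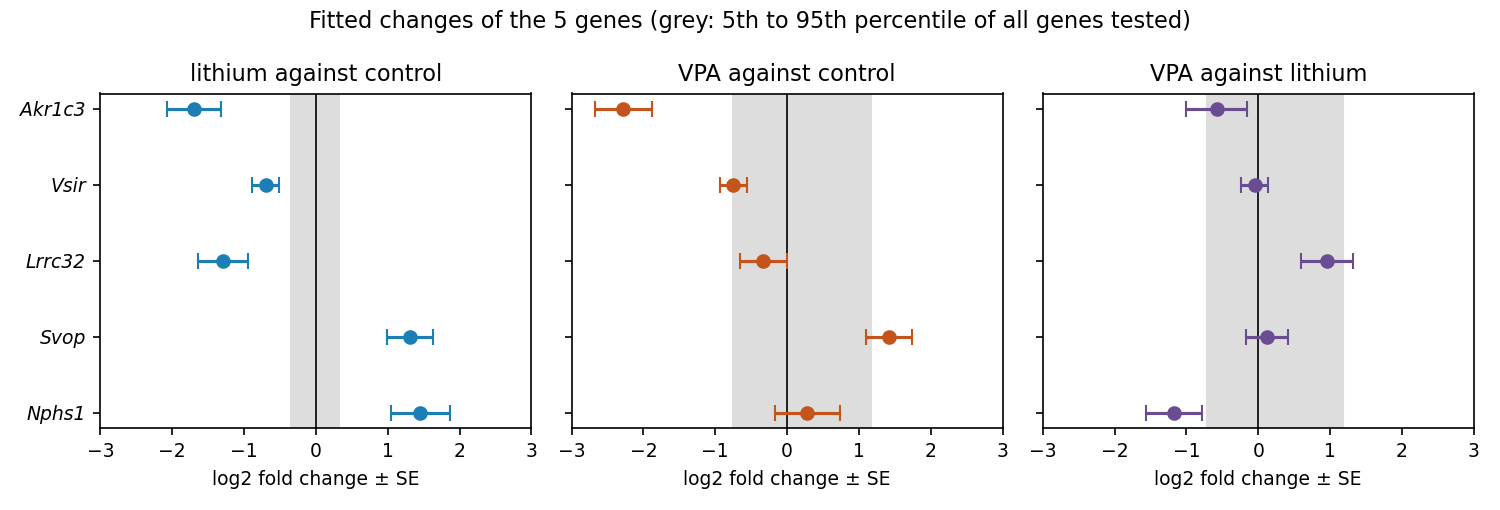
Fitted log2 fold changes (points) with standard errors (bars) of the 5 genes for lithium against control, VPA against control and VPA against lithium; the grey band spans the 5th to 95th percentile of all 12719 genes tested. Akr1c3, at -1.70 and -2.28, is the lowest of the 5 in both comparisons with control, and Lrrc32 and Nphs1 lie on opposite sides of 0 in VPA against lithium.

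Reads of the lithium libraries were available from a pair of countings. Values of the deposited lithium table were whole multiples of a single step per library (within 0.01 read, for all values under 2000 reads), which gave back the reads behind them. Over all 137 genes this table held 4.87, 5.99 and 6.25% more reads than the count table in lithium 1, 2 and 3. Lrrc32 had 16, 9 and 13 reads in both countings. Akr1c3 had 34, 10 and 18 reads in the lithium table against 32, 10 and 17 in the count table, and Svop had 31, 41 and 35 against 31, 39 and 34.

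Vsir had 292, 256 and 279 reads in the lithium table against 281, 243 and 261, and Nphs1 had 16, 26 and 20 against 13, 24 and 20. The largest relative gap of the 5 genes was thus that of Nphs1 in lithium 1, 3 reads or 23.1%. The control columns of the lithium table carry numbers that fit a title and a description of different libraries, so they are given as sets. The 3 controls held 20 reads of Nphs1 in the lithium table and 18 in the count table, and 171 against 169 of Akr1c3. For Lrrc32 they held 86 against 82, for Svop 38 against 37 and for Vsir 1189 against 1128.

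The levels led to nearly equal ratios by either counting. The log2 ratio of the lithium mean to the control mean was -1.65 in the lithium table and -1.70 in CPM for Akr1c3, -0.70 in both for Vsir, -1.37 and -1.30 for Lrrc32, 1.33 in both for Svop, and 1.43 and 1.46 for Nphs1. The authors' deposited fold changes were smaller in size than these ratios of their own normalized counts. They were -0.96 for Akr1c3, -0.63 for Vsir, -0.83 for Lrrc32, 0.82 for Svop and 0.72 for Nphs1 in the authors' deposited table, and how they were estimated is not given in the sources used here.

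**Figure D3:**
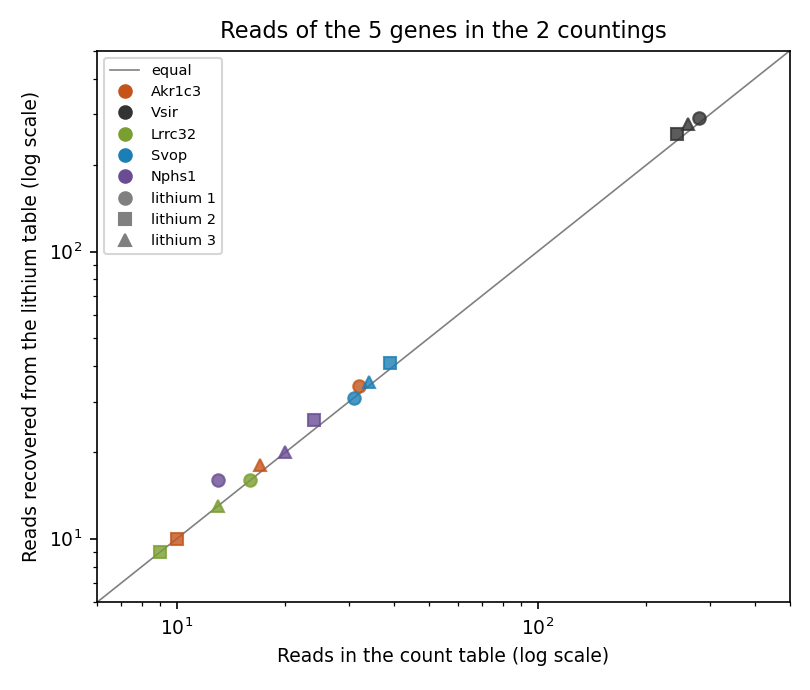
Reads of the 5 genes in lithium libraries 1, 2 and 3 as recovered from the deposited lithium table (y axis) against the count table (x axis), both on log scales, with the line of equal reads. Points lie on or just above the line; the farthest is Nphs1 in lithium 1, with 16 reads against 13.

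Lithium library 2 held the lowest level of Akr1c3 and Lrrc32 and the highest of Svop and Nphs1, while lithium 3 held the lowest of Vsir. Without lithium 2 the log2 differences from control were -1.40 for Akr1c3, -1.13 for Lrrc32, 1.17 for Svop, 1.20 for Nphs1 and -0.68 for Vsir. Without lithium 1, in which Akr1c3 was highest, they were -2.29 for Akr1c3, -1.54 for Lrrc32 and 1.63 for Nphs1. With any 1 library left out, each of the 5 lithium differences kept its direction. Since the lithium and control ranges did not overlap for any of the 5, this outcome was all but fixed in advance.

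**Figure D4:**
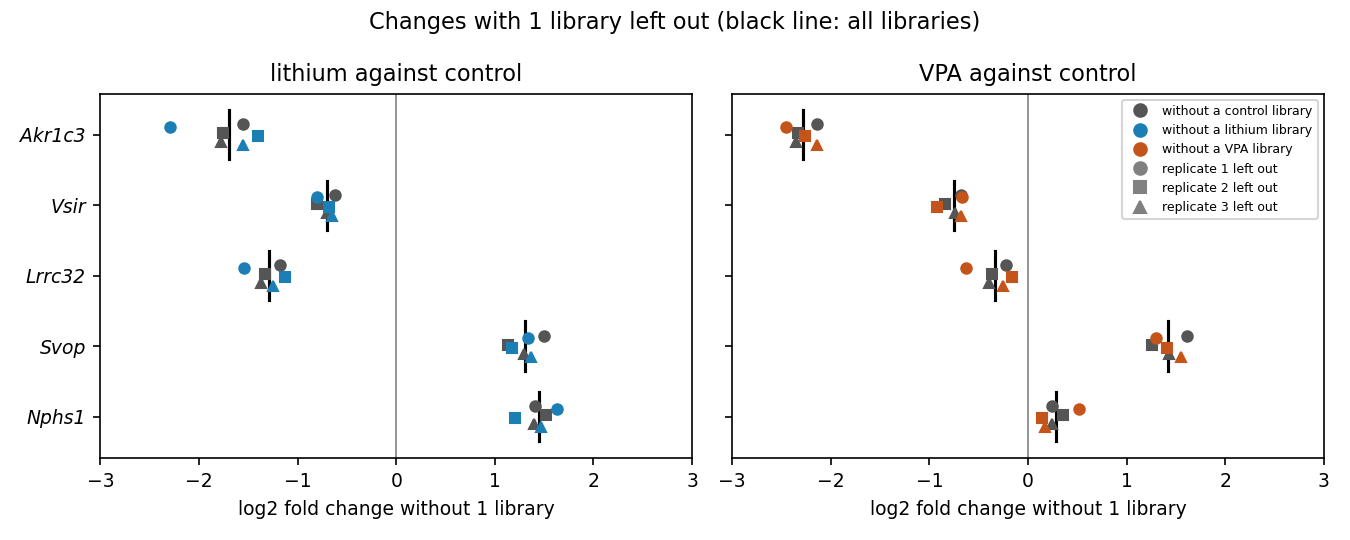
Log2 fold changes of the 5 genes for lithium against control and VPA against control when 1 control, lithium or VPA library is left out (colour: group of that library, symbol: its replicate number); the black line is the value with all libraries. Akr1c3 with lithium spreads most, from -2.29 to -1.40, and Lrrc32 and Nphs1 with VPA lie nearest to 0.

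The sequences before the gene starts are shown for the 3 genes that were called with VPA, Akr1c3, Vsir and Svop, because Akr1c3 and Vsir fell while Svop rose. They come from RefSeq (GRCr8), run 5′ to 3′ and hold the 250 bases before the start, with CG dinucleotides in capitals. RefSeq promoters were held for 4 of the 5 genes.
Akr1c3 (chr17:71020634-71020883, plus strand): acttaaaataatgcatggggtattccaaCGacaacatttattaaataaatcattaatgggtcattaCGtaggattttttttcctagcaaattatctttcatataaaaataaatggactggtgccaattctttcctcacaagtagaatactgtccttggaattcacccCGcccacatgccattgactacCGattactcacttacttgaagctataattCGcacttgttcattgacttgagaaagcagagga
Vsir (chr20:28824265-28824514, plus strand): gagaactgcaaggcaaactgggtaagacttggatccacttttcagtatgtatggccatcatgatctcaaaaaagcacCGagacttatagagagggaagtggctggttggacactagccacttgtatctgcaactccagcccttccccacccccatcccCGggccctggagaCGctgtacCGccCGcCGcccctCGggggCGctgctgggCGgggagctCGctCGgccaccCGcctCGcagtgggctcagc
Svop (chr12:48191299-48191548, plus strand): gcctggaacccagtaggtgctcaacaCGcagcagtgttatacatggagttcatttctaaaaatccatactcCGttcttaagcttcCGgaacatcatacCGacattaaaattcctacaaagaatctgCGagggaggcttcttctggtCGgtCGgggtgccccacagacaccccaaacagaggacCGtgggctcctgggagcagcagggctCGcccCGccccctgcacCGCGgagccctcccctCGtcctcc
Akr1c3 had 5 CG dinucleotides and 35.6% G and C, Vsir 13 and 61.2%, and Svop 13 and 57.2%. The Nphs1 window had 4 and 57.2%. Over 33469 RefSeq windows of the same length the medians were 5 CG dinucleotides and 51.2% G and C.

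The 3 windows above thus do not share a base composition. Motifs were searched on both strands. The TCF/LEF motif CTTTGAT, bound by the partners of beta-catenin in Wnt signalling, had 0 matches in the 4 windows held and was in 3.15% of all windows. The antioxidant response motif TGACNNNGC (10.1% of windows) and the cAMP response motif TGACGTCA (1.59%) had 0 matches as well. The GC box GGGCGG was found 1 time in Akr1c3, 3 times in Vsir and 1 time in Svop, and in 30.5% of windows. The TATA motif TATAAA was found 1 time, in Akr1c3, and in 12.9% of windows. A match is a run of letters and not a binding site.

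For each of the 5, the named genes most like it were ranked by Pearson's r of log2(CPM + 1) over the 9 libraries, among 1179 or 1180 genes with a symbol and a mean of 1 CPM or more. These genes carry names because the authors listed them by p-value on the same libraries, and the libraries of a group share their treatment. Closest to Akr1c3 were PCOLCE2 (r = 0.961), an enhancer of procollagen processing, Syndig1 (0.925), a synapse differentiation gene, and Vsir (0.903). Closest to Vsir were PCOLCE2 (0.929), Akr1c3 (0.903) and Trib2 (0.866), a pseudokinase gene. PCOLCE2 had mean levels of 39.0, 29.6 and 26.7 CPM in control, lithium and VPA.

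Closest to Lrrc32 were the chemokine gene Cx3cl1 (r = 0.797), the growth factor gene Bmp4 (0.782) and Asb1 (0.745). Closest to Svop were Tchh (0.911), Fgd4 (0.872) and a gene listed as U1 (0.850). Closest to Nphs1 were the phosphatase gene Ptpn22 (0.810), the scavenger receptor gene Scarf1 (0.769) and the epoxide hydrolase gene Ephx1 (0.721). The highest r was thus that of Akr1c3, and the lowest first-ranked r was that of Lrrc32. These ranks depended on the measure and the libraries. Without the VPA libraries (6 libraries) Syndig1 took rank 1 for Akr1c3 (r = 0.994), while Trib2 went to rank 56 for Vsir, Cx3cl1 to rank 21 and Bmp4 to rank 64 for Lrrc32, Tchh to rank 8 for Svop and Ptpn22 to rank 26 for Nphs1. By Spearman's rho Vsir stood at rank 54 for Akr1c3, and Akr1c3 at rank 83 for Vsir. Among these pairings, Fgd4 alone was not in the authors' deposited lithium table.

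Lists of genes around each of the 5 could be read only where the deposited tables gave a name, which they did by p-value on these libraries, so their counts are no independent evidence. Calls are those of edgeR at an adjusted p under 0.05, for VPA against control; with lithium 0 members of any list were called. Over all genes tested, 8.7% were called for VPA against control (5.71% higher, 2.99% lower) and 0% for lithium against control. Listed genes with a name were picked by p-value, so their larger shares are no finding about a pathway or cell type. The median log2 difference over all genes tested was 0 with lithium and -0.01 with VPA. Of 41 other genes of prostaglandin and steroid metabolism, 4 were named and tested; VPA raised 2 and lowered 0. The rises were Hsd11b1, which regenerates active glucocorticoid (2.95 ± 0.49), and Hsd17b7, a steroid reductase (1.04 ± 0.26). Akr1c19 (-1.56 ± 0.44, adjusted p = 0.0508, edgeR) and the prostaglandin synthase Ptgs1 (-0.12 ± 0.26) did not pass. The list's median was 0.46 with VPA and -0.30 with lithium.

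Of 35 other synaptic vesicle genes, 9 were tested; 7 rose with VPA and 0 fell, with a median of 2.57, against -0.07 with lithium. Snap91, an endocytic adaptor, changed by 3.36 ± 0.31 with VPA and had a difference of 0.63 ± 0.33 with lithium. The calcium sensor Syt1 (2.57 ± 0.27), the vesicular glutamate transporter Slc17a7 (2.86 ± 0.42) and the fusion protein Snap25 (3.19 ± 0.48) also rose with VPA, and with lithium their log2 differences were -0.10, -0.07 and 0.22. Svop stood at 1.42 with VPA and 1.31 with lithium. Its place beside these medians is no finding, since Svop was chosen for its lithium change and the listed genes carry names by p-value.

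Of 25 other B7 family genes and VISTA partners, 3 were tested, with medians of 0.71 with VPA and -0.11 with lithium. The galectin Lgals9, a partner of inhibitory receptors on T cells, rose with VPA by 0.96 ± 0.22, and the costimulator Cd80 fell by 1.03 ± 0.25. Cd80 stood at 12.5, 15.4 and 16.7 CPM in control and at 15.9, 24.6 and 23.6 CPM with lithium, and these ranges overlapped. The costimulator Icoslg had a log2 difference of 0.71 ± 0.22 with VPA (adjusted p = 0.074, edgeR) and -0.64 ± 0.23 with lithium. It stood at 3.81, 4.67 and 5.33 CPM in control and at 3.1, 2.72 and 3.0 CPM with lithium. These ranges did not overlap, as was so for 3.28% of all genes tested.

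Of 36 other genes of TGF-beta activation and signalling, 6 were tested; 2 rose with VPA and 1 fell, with medians of -0.04 with VPA and -0.07 with lithium. The gelatinase Mmp9 was among the rises (2.41 ± 0.55). Thrombospondin 1, Thbs1, an activator of latent TGF-beta, fell by 1.23 ± 0.32 with VPA and had a difference of -0.86 ± 0.32 with lithium. The membrane protease Mmp14 (-0.93 ± 0.27, adjusted p = 0.0545, edgeR) did not pass. Of 28 other slit diaphragm and podocyte genes, 4 were tested; Podxl, a sialomucin of podocytes and endothelium, rose with VPA by 1.75 ± 0.42 and 0 fell. Kirrel, the nephrin partner NEPH1, had a difference of -0.78 ± 0.25 with VPA and -0.06 ± 0.24 with lithium; Plce1 (1.74 ± 0.55) and Cask (0.65 ± 0.24) did not pass with VPA either. The list's median was 1.19 with VPA and 0.12 with lithium. The podocyte marker Wt1 carried no name and was not analysed here.

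Of 37 lithium-inhibited enzymes and Wnt targets, 6 were tested, all from the Wnt and Akt side; 3 rose with VPA and 2 fell, with medians of 0.42 with VPA and -0.01 with lithium. Cyclin D2, Ccnd2, rose from 0.181, 0 and 0 CPM in control to 2.26, 1.82 and 2.09 CPM with VPA, and no fold is given from a control near 0. The beta-catenin partner Lef1 rose by 1.83 ± 0.35; the kinase gene Akt1 fell by 0.70 ± 0.17 and the cyclin gene Ccnd1 by 0.86 ± 0.22. With lithium, Lef1 had a difference of -0.46 ± 0.39 and Ccnd1 of 0.03 ± 0.22.

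Markers of other cell types were read in the same way. The shares called with VPA over all genes tested were again 5.71% higher and 2.99% lower. All libraries are of the 1 line RN46A, so the markers are read as gene levels and not as amounts of other cells. Of 22 T cell and leucocyte markers 5 were tested, 2 of which rose and 1 of which fell with VPA. Their summed level was 51.6 to 75.3 CPM in control, 47.6 to 73.6 CPM with lithium and 53.8 to 91.6 CPM with VPA. Ptprc, Cd3e and Foxp3 carried no name and were not analysed here. Whether the Vsir and Lrrc32 levels go with leucocyte genes was not tested. Of 14 fibroblast and mesenchymal markers 8 were tested, of which 5 fell and 1 rose with VPA. Their sum was 6050 to 7920 CPM in control, 5060 to 6590 CPM with lithium and 2600 to 4200 CPM with VPA, and most of it came from Vim and S100a4. The median log2 difference of these 8 markers with lithium was -0.85, the lowest of the lists, with -1.09 for the collagen gene Col3a1, -0.93 for Col1a1 and -0.76 for the receptor gene Pdgfra. Col3a1 stood at 285, 123 and 124 CPM in control and at 115, 65.4 and 70 CPM with lithium, ranges that did not overlap, as was so for 3.28% of all genes tested. Pdgfra, at 6.62, 4.02 and 5.24 CPM in control and 3.53, 2.37 and 3.47 CPM with lithium, did not overlap either. The ranges of Col1a1 overlapped, as did those of Dcn (-1.95) and Lum (-2.15). S100a4 had a difference of -0.41, and Vim (-0.11) and Cnn1 lay near 0. Col3a1, Col1a1 and Pdgfra are also in the authors' deposited lithium table, which lists genes by p-value on these libraries, so their differences are no independent evidence. Whether the levels of the 5 go with fibroblast and mesenchymal genes as a set was not tested. Of 20 pan-neuronal markers 9 were tested, of which 8 rose and 0 fell with VPA. The sum over named pan-neuronal markers was 142 to 199 CPM in control, 136 to 174 CPM with lithium and 337 to 469 CPM with VPA. The lithium medians were 0.08 for the leucocyte, 0 for the pan-neuronal and -0.35 for the serotonergic markers. All 3 serotonergic markers tested rose with VPA, and 0 of 12 megakaryocyte and endothelial markers carried a name. In bulk RNA, fewer cells with a transcript and less of it per cell cannot be told apart.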

How the data were processed

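Polyadenylated RNA of 9 RN46A libraries (RIN above 7, per the labels' protocols) was sequenced unstranded. Groups and replicate numbers are those of the titles. The submitters' processing notes name, without roles, the tools sleuth, DESeq2, Cufflinks 2.2.1, STAR 2.5.1, CASAVA 1.8, Salmon 0.6.1 and kallisto 0.42.4; for the build and annotation, nothing is given in the sources used here. The authors deposited whole-number counts per Ensembl gene, with 0 further per-sample columns unused. Per the file headers, their DESeq2 tables hold a signal (normalized counts), log2 fold changes and p-values; the deposited lithium table reaches an unadjusted p of 0.0499. Deposited FPKM values are 1 per group, and deposited sleuth effects are on a natural log scale. The kallisto table was not used, and no count test was run on the lithium table's reads, since it holds only genes listed by p-value.

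Counts were fitted with edgeR 4.0.16 in R 4.3.3: filterByExpr (minimum count 10), TMM, and group means over all 9 libraries in a robust quasi-likelihood model with 6 residual degrees of freedom and a biological coefficient of variation of 0.22. Tests were two-sided, with p-values adjusted by Benjamini-Hochberg over 12719 genes, those kept of 32662, and calls were made under 0.05. The SE is the log2 fold change over the square root of F. The fit was tested on simulated data. Alternatives were DESeq2 1.42.0, other scalings and filters, a non-robust fit, 2 groups alone, the replicate block and leaving out each library. Intervals and counting errors cover these libraries only.

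Same-numbered control and VPA libraries, by title, moved together around their group means (correlations 0.61, 0.53 and 0.526 over 10288 genes averaging at least 5 CPM). The numbers were used as pairs only in the alternatives with the replicate block. The main fit left the pairs out, so its p-values ignore them. Same-numbered lithium and control libraries did not move together throughout (-0.424, -0.0801 and 0.807).

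The 5 genes, the 11 gene lists, the motifs and the tests were chosen with earlier results of these data known. Genes are named as members, as the 3 most like each member, as up to 4 members of a list by p, or as neighbours of a member in the deposited p-values. Cell type markers stand as sums, except the 3 serotonergic markers with a name and the 8 fibroblast and mesenchymal markers tested. These 8 were named after their values were seen. Names came from the deposited tables, which name 1384 identifiers. Some list members are not reported here.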

Additional observations from a re-analysis of the deposited data

How the results depend on the processing

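The lithium comparison gave 0 calls under every alternative run. The directions of the 5 lithium differences held under every alternative run, from -2.29 to -1.40 for Akr1c3, -0.80 to -0.62 for Vsir, -1.54 to -1.13 for Lrrc32, 1.13 to 1.5 for Svop and 1.20 to 1.63 for Nphs1. The same libraries chose the genes for these differences, so the kept directions are no support for them. Akr1c3 stayed called with VPA in all 18 alternatives (adjusted p from 2.53e-05 to 0.0275), Svop in 16 and Vsir in 13, in edgeR or DESeq2. Control libraries that took part in choosing the genes enter each of these fits, so the VPA calls are not independent of the choice.

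With the replicate block, 1741 genes were called for VPA against control, in place of 1106, and 1609 for VPA against lithium, in place of 1009, although lithium and VPA numbers do not pair (correlations -0.203, 0.0589 and 0.536). In fits of 2 groups alone, the replicate block, added there after seeing the data, gave 2408 calls in place of 862 for VPA against control and 1318 in place of 1197 for VPA against lithium. Among the 5 genes the block changed 1 call, that of Vsir with VPA in the fit of 2 groups alone (adjusted p 0.057 without it and 0.0163 with it, edgeR). With 1 library left out, VPA against control gave 638 to 1026 calls and VPA against lithium 544 to 1197. Lithium 1 deviated most with control 2 (0.687) and lithium 2 with control 1 (0.654), a hint from the data and not from the design.

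The difference of VPA from lithium changed sign, always near 0, for Akr1c3 without lithium 1 (0.01; -0.88 to 0.01 over libraries left out), for Vsir without lithium 1 (0.04), VPA 1 or VPA 3 (0.03 each; -0.20 to 0.04), and for Svop without VPA 1 (-0.01; -0.01 to 0.25). Depth limits Nphs1, Svop and Lrrc32, with 6 to 24, 8 to 47 and 9 to 36 reads per library.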
